A study of Caenorhabditis elegans with 2 samples.

Results

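The proteasome subunit genes of Caenorhabditis elegans were examined in chromatin immunoprecipitation sequencing (ChIP-seq) of the protein T26A5.8. Members were the protein-coding genes named pas, pbs, rpn or rpt with a number, which gave 33 of the 19973 protein-coding genes on the nuclear chromosomes of the Ensembl annotation. Only 1 group was available, T26A5.8-GFP, with 2 biological replicates numbered 3 and 4. The whole young adult worms were of mixed sex, from strain OP598 with the genotype unc-119(tm4063) III; wgIs598, and carried T26A5.8 with GFP and FLAG at its C-terminus. They were collected 63 h after release from starvation as first-stage larvae, and the antibody recognized GFP. The labels do not name the promoter that drives the transgene, and control libraries were not analysed here.

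The proteasome is the large protease that degrades ubiquitin-tagged proteins in the cytosol and nucleus. Its 20S core is a barrel of outer alpha rings, encoded by pas genes, which gate entry, and inner beta rings, encoded by pbs genes, which hold the cutting sites. The 19S cap has a ring of rpt ATPases that unfold substrates, and rpn subunits that bind ubiquitin, remove it and hold the cap together. In worms and mammals alike, the genes of this complex are expressed in nearly all cells, and in worms the transcription factor SKN-1 raises their expression when proteasome activity falls.

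In 22 of the 33 proteasome genes the strongest candidate region lay at the 3′ end of the gene, against 16.2% of all protein-coding genes and 24.7% of the 13147 with an entry in any window defined here. Each gene was given a start window (1000 bp before the start to 200 bp into the gene), a body and an end window (the last 200 bp of the gene and the next 500 bp), and each region was placed by its summit. In the authors' pooled list, which ranks 30000 candidate regions including background by an enrichment signal, 28 of the 33 genes (84.8%, exact 95% binomial interval 68.1 to 94.9) had a summit in the end window, against 27.3% of all protein-coding genes. The start window held a summit in 14 of 33 genes (42.4%), against 32.8% of all protein-coding genes, and the body in 24 of 33 (72.7%), against 52.0%. The start count depended on the window, with 9 genes for 500 bp before to 100 bp inside the gene and 29 genes for 2000 bp before to 500 bp inside it, where 19.01% and 51.7% of all protein-coding genes had a summit. In the end window, the median signal of the strongest entry was 54.3 over the 28 genes that had one and 30.8 over the 5445 of all protein-coding genes that had one. In the start window the medians were 36.7 and 28.4, and in the body 33.01 and 30.4. The intervals describe the counting of genes only, genes are not replicates, and no difference between the members and other genes was tested.

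Sequences of 101 bp centred on the pooled summit are given for 4 of the proteasome gene ends whose entry was among the 1000 strongest, each in a window clear of annotated untranslated sequence. They show examples of what lies under strong signals just past the genes, at pooled ranks 255, 846, 822 and 712. The summits at pas-2 and pbs-1 lay in coding exons of the neighbouring genes D1054.3 and K08D12.4. The summit at pas-7 lay in an intron of lact-2, and that at rpn-3 between genes. The windows of rpn-8, pbs-5 and pas-3, of which rpn-8 and pbs-5 rank above these, are not shown. Capitals mark the 11 bases at the summit. Each is written 5′ to 3′ on the strand of the proteasome gene, from the reference genome WBcel235 (ce11).
pas-2, chrV:10771543-10771643, forward strand: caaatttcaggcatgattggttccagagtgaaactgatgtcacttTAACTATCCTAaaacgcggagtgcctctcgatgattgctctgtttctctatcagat
pbs-1, chrIV:1708422-1708522, reverse strand: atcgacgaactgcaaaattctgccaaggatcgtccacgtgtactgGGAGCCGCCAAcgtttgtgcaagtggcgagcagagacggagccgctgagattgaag
pas-7, chrII:10098393-10098493, reverse strand: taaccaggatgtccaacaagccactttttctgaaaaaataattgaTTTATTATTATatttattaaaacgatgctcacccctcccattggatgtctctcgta
rpn-3, chrIII:8449349-8449449, forward strand: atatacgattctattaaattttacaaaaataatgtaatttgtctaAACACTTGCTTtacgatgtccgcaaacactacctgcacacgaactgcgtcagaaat
G and C made up 41.6% of the window at pas-2, 55.4% at pbs-1, 33.7% at pas-7 and 32.7% at rpn-3. These windows differ in composition, and only the 1 at pas-7 held AATAAA, the letters of the usual polyadenylation signal, or its reverse complement TTTATT. On the pas-7 strand shown it was TTTATT, so AATAAA read on the opposite strand, that of lact-2. Over the strongest end entries of all 28 genes, G and C made up 40.03% ± 7.75 (SD over 28 summits) against 40.9% ± 8.43 over the 4848 such summits of all protein-coding genes. AATAAA on either strand was present in 7 of 28 windows against 881 of 4848 (18.2%) of those summits.

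**Figure D1:**
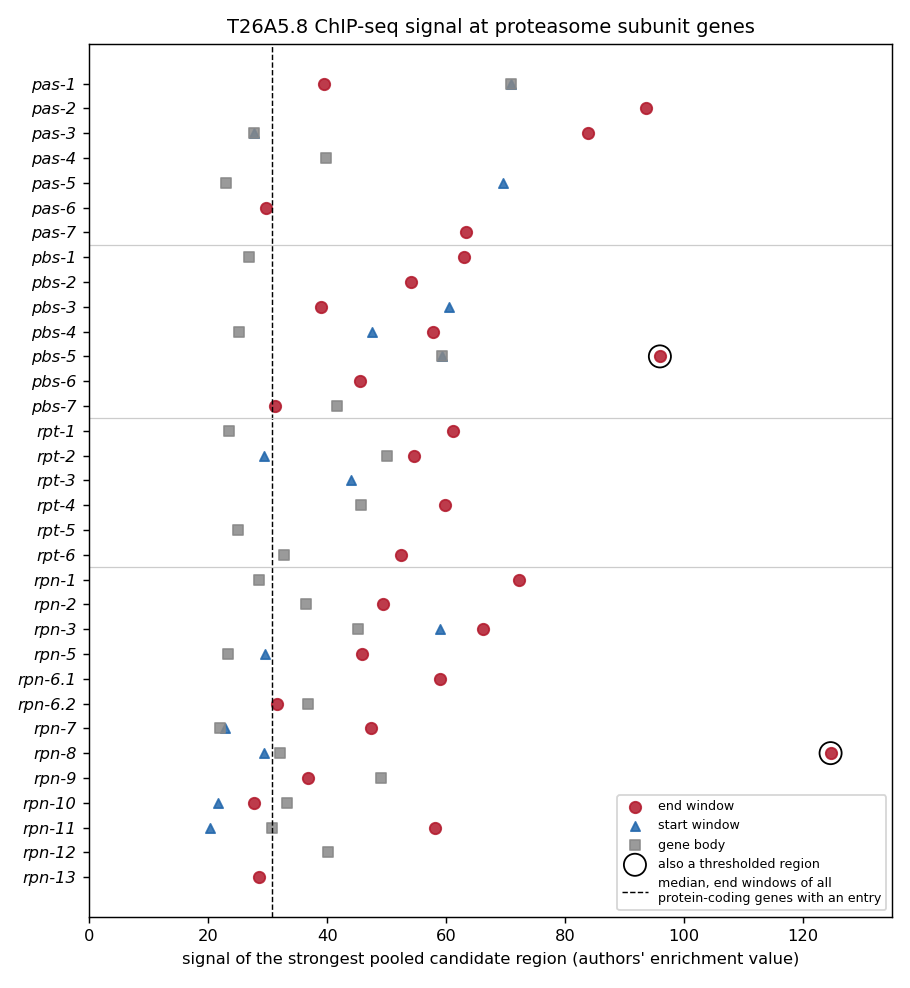
Signal of the strongest pooled candidate region (x axis, the authors' enrichment value) in the end window, start window and body of each of the 33 proteasome genes, grouped from top to bottom as alpha ring, beta ring, ATPase ring and other cap subunits. Of the 28 end entries (circles), 25 lie right of the dashed line, the median of 30.8 over end windows of all protein-coding genes with an entry, and the ringed circles at rpn-8 and pbs-5 are also thresholded regions.

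Reproducible regions, kept by the authors' irreproducible discovery rate (IDR) threshold, were found in these windows at 2 of the 33 proteasome genes. Of the 369 thresholded regions, 2 had their summit in a member's end window (2 of 33 genes, 6.06%, exact 95% binomial interval 0.743 to 20.2), against 0.996% of all protein-coding genes. No member had a thresholded summit in the start window, against 0.806% of all protein-coding genes, or in the body, against 0.891%. A count of 0 of 33 genes allows a share of up to 9.09% at a limit of 3 genes, and up to 10.6% by the exact 95% binomial interval. Both are above the share of all protein-coding genes in either window, so a difference was not detectable with this number of genes. The start window was also widened to 2000 bp before and 500 bp inside the gene. There 1 of 33 members had a thresholded start summit, against 1.34% of all protein-coding genes. This summit lay 1592 bp before pbs-1, with a signal of 153.5 and rank 48 of the 369, above the regions at gene ends.

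The stronger of the gene-end regions was assigned to rpn-8, a lid subunit that in yeast pairs with the deubiquitinase Rpn11. Its thresholded region spanned 4177290 to 4177649 on chromosome I of ce11, peaked close to 200 bp past the end of rpn-8 and was rank 82 of the 369, with a signal of 134.8. The overlapping entry had a signal of 61.4 in replicate 3 (rank 181 of 30000) and 65.5 in replicate 4 (rank 65 of 30000). It was therefore high in both replicates. The pooled summit lay 257 bp past rpn-8 in a coding exon of R12E2.13, which faces rpn-8 with 33 bp between the gene ends.

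The other was assigned to pbs-5, which encodes the beta subunit known from yeast and mammals for chymotrypsin-like cutting. Its thresholded region spanned 14718748 to 14719107 on chromosome I of ce11, peaked 239 bp past the end of pbs-5 and was rank 249 of the 369, with a signal of 97.4. The overlapping entry had a signal of 69.6 in replicate 3 (rank 103) and 26.6 in replicate 4 (rank 2040), so it was among the strongest entries of replicate 3 alone. The pooled summit lay in a coding exon of the facing gene Y54E5A.8, 128 bp before the end of that gene, and 388 bp before the start of dus-2, the nearest other start. Neither region had a tRNA, snoRNA or snRNA gene within 200 bp. In 101 bp windows around the 2 thresholded summits G and C made up 49.5% and 51.5%, against an average of 47.1% ± 8.08 (SD) over all 369. Around the pooled summits of the same regions they made up 58.4% at rpn-8 and 41.6% at pbs-5, so the value moved with the summit used. Neither thresholded window held AATAAA, which was present in 12.5% of the 369.

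The end entries of the alpha ring genes pas-2 and pas-3 ranked high in the pooled list but overlapped no thresholded region. The end entry of pas-2 had a pooled signal of 93.6 (rank 255), with 61.3 in replicate 3 (rank 183) and 28.4 in replicate 4 (rank 1565). The end entry of pas-3 had a pooled signal of 83.8 (rank 353), with 50.3 in replicate 3 (rank 344) and 33.4 in replicate 4 (rank 805). Both were thus within the 369 strongest pooled entries, of which 54 overlapped no thresholded region. The pas-2 summit lay 242 bp past the gene and 142 bp inside D1054.3, the next gene on the same strand. The pas-3 summit lay 215 bp past the gene and 16 bp inside the start of chp-1, likewise next on the same strand, so the end of one gene and the start of the next cannot be told apart as the site of either. With the 369 strongest entries of replicate 3 in place of the thresholded list, 4 members had an end summit (rpn-8, pbs-5, pas-2 and pas-3). The share of all protein-coding genes was 0.951%. With the 369 strongest entries of replicate 4 only rpn-8 had 1, against 1.08% of all protein-coding genes.

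Among the 1000 strongest pooled entries, 10 of 33 genes (30.3%, exact 95% binomial interval 15.6 to 48.7) had an end entry, against 2.64% of all protein-coding genes. After rpn-8, pbs-5, pas-2 and pas-3, these were rpn-1, rpn-3, pas-7, pbs-1, rpt-1 and rpt-4. The start window held such an entry in 3 of 33 genes, against 2.01% of all protein-coding genes. Of the 28 end entries, 10 more ranked between 1001 and 3000, 5 between 3001 and 10000 and 3 lower. Their median rank was 1339.5, against 10201 over the end windows of all protein-coding genes with an entry.

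rpn-1, the scaffold of the cap's base, where ubiquitin shuttle proteins dock in yeast, had a pooled end signal of 72.2, with 34.9 in replicate 3 (rank 1184) and 40.2 in replicate 4 (rank 417). Its summit lay 121 bp past the gene, inside the facing gene T22D1.17 and 49 bp inside the start of T22D1.8. The lid subunit gene rpn-3 had a pooled end signal of 66.2, with 42.01 in replicate 3 (rank 603) and 27.5 in replicate 4 (rank 1789). Here the summit lay between genes, 53 bp past rpn-3 and 358 bp before mrpl-32, so its nearest gene boundary was the end of rpn-3. The alpha ring gene pas-7 had 63.4 pooled, with 40.6 in replicate 3 (rank 683) and 25.1 in replicate 4 (rank 2611), in an intron of the facing gene lact-2 and 339 bp past pas-7. pbs-1, whose product is known in yeast and mammals for caspase-like cutting, had 62.9 pooled. It had 40.6 in replicate 3 (rank 684) and 30.1 in replicate 4 (rank 1222). The pbs-1 summit lay in a coding exon of the facing gene K08D12.4, 342 bp past pbs-1 and 219 bp before the end of K08D12.4. By rank, rpn-3, pas-7 and pbs-1 were higher in replicate 3, and rpn-1 in replicate 4.

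The ATPase genes rpt-1 and rpt-4 were the last of these 10. rpt-1 had a pooled signal of 61.2 at 21 bp past its end, with 37.2 in replicate 3 (rank 931) and 40.3 in replicate 4 (rank 416). In replicate 4 the strongest entry lay 191 bp from the pooled summit, at 212 bp past the end of rpt-1 and within 200 bp of a tRNA, snoRNA or snRNA gene. The nearest such gene to the pooled summit was the snRNA gene T11F9.15, 252 bp away. rpt-4 had a pooled signal of 59.8, with 28.6 in replicate 3 (rank 2576) and 35.9 in replicate 4 (rank 617), at 211 bp past its end and 14 bp before the start of F23F1.10. It was the last of the 10, at pooled rank 998. Of the 10 end summits, those at rpn-3, rpt-1 and pas-7 had the end of the proteasome gene as nearest protein-coding gene boundary. At pas-7 the end of lact-2 was nearly as close, 342 bp against 339 bp. At pas-2, pas-3, rpn-1 and rpt-4 the start of another gene was nearer. At rpn-8, pbs-5 and pbs-1 the end of the facing gene was nearer.

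The 18 other end entries ran down to 27.8 at rpn-10 (rank 13644). rpn-6.1, whose product in yeast braces the lid against the core, had 58.9 at 275 bp past its end, inside a 3′ untranslated exon of let-711, and its paralog rpn-6.2 had 31.6. The deubiquitinase gene rpn-11 had 58.1, pbs-4 57.8, rpt-2 54.7, pbs-2 54.0, rpt-6 52.4, rpn-2 49.3, rpn-7 47.3, rpn-5 45.8, pbs-6 45.6, pas-1 39.5, pbs-3 39.0, rpn-9 36.8, pbs-7 31.3, pas-6 29.7 and rpn-13 28.6. rpn-10 and rpn-13 encode ubiquitin receptors of the cap in yeast and mammals. The rpn-10 summit was the only 1 of the 28 inside its own gene, 139 bp before the end. The entry at rpt-2 was the only 1 within 200 bp of a tRNA, snoRNA or snRNA gene.

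Of the 33 genes, 5 had no pooled summit in the end window. The alpha ring genes pas-4 and pas-5, the ATPase genes rpt-3 and rpt-5 and the lid gene rpn-12 made up this group. Each had a pooled entry elsewhere, so no member was without 1. In pas-4 the strongest lay in a coding exon 485 bp before the gene end, with a signal of 39.8, and in rpn-12 573 bp before the end, with 40.1. In rpt-3 it lay 27 bp before the gene start, between genes, with 43.9. In rpt-5 it lay in a coding exon 444 bp before the end, with 24.95. In replicate 4 alone, pas-4 and rpt-5 did have end summits, with signals of 29.96 (rank 1253) and 17.9 (rank 9064).

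At gene starts, pas-1, pas-5 and pbs-3 had entries among the 1000 strongest, and in these 3 genes the start entry was stronger than any end entry. pas-1 had a pooled signal of 71.0 (rank 572), with 42.6 in replicate 3 (rank 576) and 29.6 in replicate 4 (rank 1316), in a coding exon 164 bp inside the gene and 271 bp past the end of its same-strand neighbour rpoa-12. pas-5 had 69.6 (rank 617), with 27.6 in replicate 3 (rank 2985) and 46.3 in replicate 4 (rank 257), between genes at 698 bp before its start and 209 bp past the snoRNA gene F25H2.15. pbs-3 had 60.5 (rank 964), with 33.2 in replicate 3 (rank 1441) and 35.8 in replicate 4 (rank 619), 32 bp before its start and 9 bp before the end of ulp-2. The nearest end of another protein-coding gene was 271 bp from the summit at pas-1, 9 bp at pbs-3 and 749 bp (ubc-25) at pas-5. The matching distances for start entries of all protein-coding genes are not given here. The strongest entry of replicate 3 at pas-5 lay within 200 bp of a tRNA, snoRNA or snRNA gene. rpn-3, with 59.0 at 195 bp before its start, and pbs-5, with 59.4 at 80 bp inside the gene, followed at ranks 1036 and 1016. Where a gene had both a start and an end entry, the end entry was the stronger in 10 of 12 genes, against 54.5% of the 2563 protein-coding genes with both.

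End entries were found in all 4 subunit groups. An end entry was present at 5 of 7 alpha ring genes, 7 of 7 beta ring genes, 4 of 6 ATPase genes and 12 of 13 other cap genes. The median pooled signals were 63.4, 54.0, 57.2 and 48.3, with ranges of 29.7 to 93.6, 31.3 to 95.9, 52.4 to 61.2 and 27.8 to 124.6 in the same order. The ranges overlapped, and differences between groups were not tested. By chromosome, the members lay on I (10 genes), II (7), III (8), IV (3) and V (5) and none on X. End entries were found for 7, 6, 7, 3 and 5 of these. Among protein-coding genes on I to V alone, 28.3% had an end entry.

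**Figure D2:**
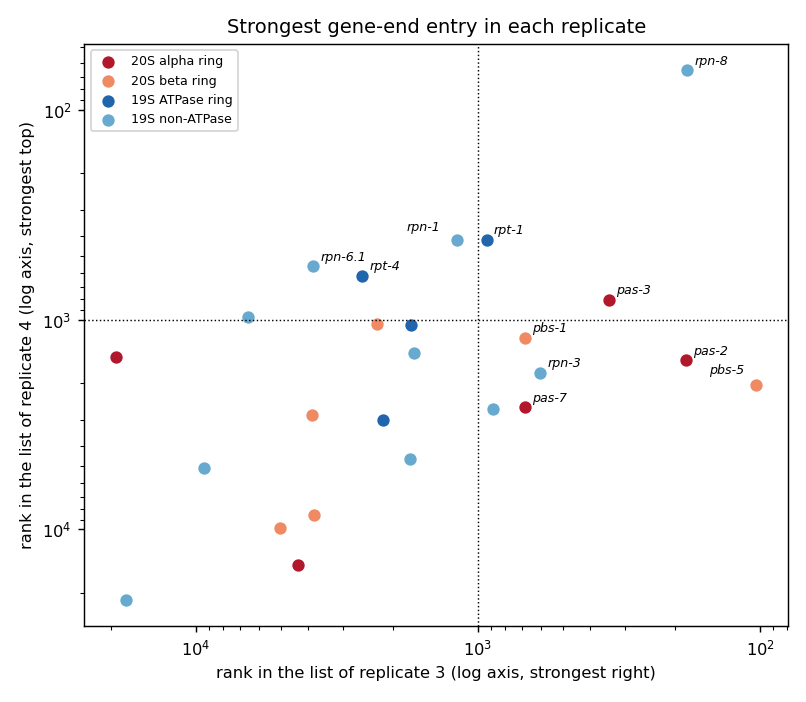
Rank of the strongest end-window entry in the list of replicate 3 (x axis, log scale, strongest at right) and of replicate 4 (y axis, log scale, strongest at top) for the 25 proteasome genes with an entry in both, coloured by subunit group. Dotted lines mark rank 1000, and rpn-8, pas-3 and rpt-1 lie beyond both lines.

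The gene-end entries were found in each replicate, but their order differed between the replicates. In replicate 3, 25 of 33 genes had an end entry, against 26.3% of all protein-coding genes, and in replicate 4, 30 of 33 had 1, against 26.9%. Both replicates had 1 at 25 genes, against 14.5% of all protein-coding genes, replicate 4 alone at 5 genes and neither at 3. The median end signal was 31.5 over the 25 genes in replicate 3, against 19.3 over all protein-coding genes with an entry, and 27.6 over the 30 genes in replicate 4, against 16.9. Signals of the replicates are not on a stated common scale and are not compared with each other.

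End entries among the 1000 strongest of a replicate were found at 9 of 33 genes in replicate 3, against 2.47% of all protein-coding genes, and at 7 of 33 in replicate 4, against 2.55%. Only 3 genes, rpn-8, pas-3 and rpt-1, had 1 in both, against 1.12% of all protein-coding genes. Such entries shared the window but not always the place. In replicates 3 and 4 the summits lay 257 and 199 bp past rpn-8, 323 and 215 bp past pas-3, and 24 and 212 bp past rpt-1. The plot of ranks shows pbs-5 and pas-2 within the 1000 strongest of replicate 3 alone. It shows rpn-1, rpn-6.1 and rpt-4 within the 1000 strongest of replicate 4 alone. In the other replicate the ranks of these genes ran from 1184 at rpn-1 to 3847 at rpn-6.1, of 30000. In the 25 genes with entries in both, the summits of the replicates lay a median of 70 bp apart, and 15 (60%) lay within 100 bp, against 83 bp and 56.3% for all protein-coding genes with entries in both.

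**Figure D3:**
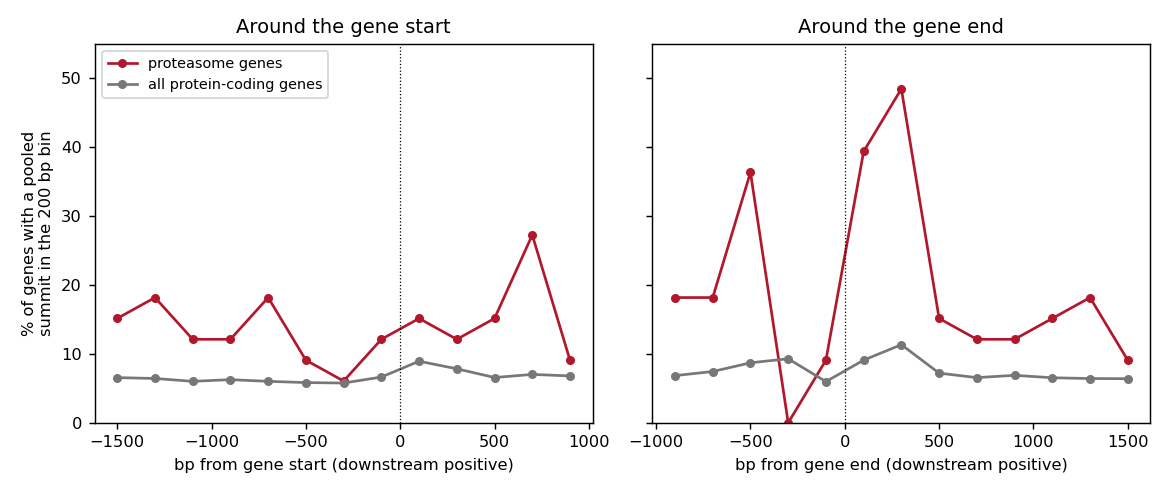
Share of genes (y axis, percent) with at least 1 pooled summit in successive 200 bp bins around the annotated gene start (left) and gene end (right), for the 33 proteasome genes and for all protein-coding genes. At the gene end the proteasome genes reach 39.4% and 48.5% in the first and the second 200 bp bin past the end, against 9.10% and 11.3% of all protein-coding genes, with no summit in the bin from 400 to 201 bp before the end.

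Summits were most frequent in the 400 bp past the gene end. In 200 bp bins, 13 of 33 genes had a pooled summit within the first 200 bp past the end and 16 within the next 200 bp, while 5 had 1 from 400 to 599 bp. Before the end, the bin from 400 to 201 bp held none, against 9.30% of all protein-coding genes, and the bin from 600 to 401 bp held 12 genes (36.4%, against 8.71%). Around the gene start the fullest bin, from 600 to 799 bp inside the gene, held 9 of 33 genes (27.3%, against 7.02%). The members' share was above that of all protein-coding genes in each bin around the start. The lowest was 6.06% against 5.77%, from 400 to 201 bp before the start. The bins were chosen after the values were seen, and bins with few genes carry wide counting error. The strongest end entry lay a median of 226.5 bp past the end (quartiles 130 and 271.75), against 205 bp (66 and 331) for all protein-coding genes with an entry, and 27 of 28 lay past the end, against 80.9%.

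Proteasome genes had close downstream neighbours, so most of these summits were also near another gene. The next protein-coding gene began or ended within 250 bp, or overlapped, for 26 of the 33 genes (78.8%), against 37.0% of all protein-coding genes. Of these 26, 24 had an end entry. Among all protein-coding genes with so close a neighbour 38.5% had 1, and among the rest 20.7%. Of the 7 members with a farther neighbour, 4 had an end entry. The 250 bp limit was chosen after the values were seen. The part that close spacing plays in the members' share was not tested beyond these values.

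The downstream neighbour faced the proteasome gene in 18 cases and lay on the same strand in 15. An end entry was present in 15 of the 18 (median signal 57.8) and 13 of the 15 (median signal 45.6). For all protein-coding genes the shares were 29.2% and 25.7%, with medians of 31.2 and 30.5. End entries were therefore found in both arrangements. Of the 28 summits, 14 lay in a coding exon, 3 in a 3′ untranslated exon, 1 in a 5′ untranslated exon, 5 in an intron and 5 between genes, in each case counting all protein-coding genes. Between-gene summits made up 17.9% for the members, against 37.2% for all protein-coding genes with an end entry. In 15 of 28 the summit also fell in the start window of another protein-coding gene (53.6%, against 32.7%), and in 6 in the end window of another (21.4%, against 23.01%). The 10 that fell in no other such window made up 35.7%, against 46.8%.

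**Figure D4:**
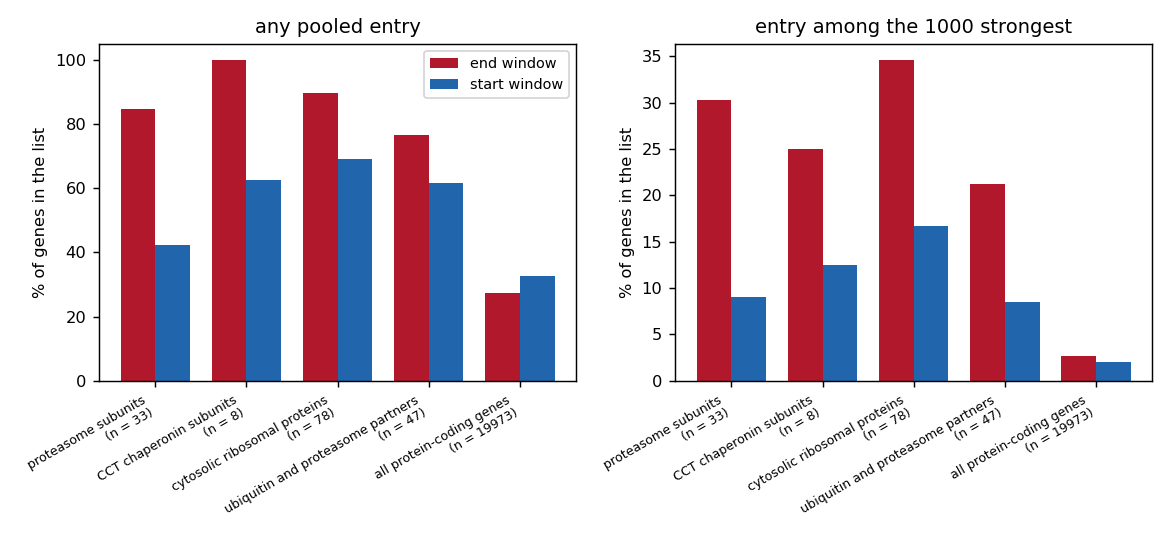
Share of genes (y axis, percent) with any pooled entry (left) and with an entry among the 1000 strongest (right) in the end window and in the start window, for the proteasome genes, CCT chaperonin genes, ribosomal protein genes, ubiquitin and proteasome partners and all protein-coding genes. End shares exceed start shares in the 4 named lists in both panels, while for all protein-coding genes they are 27.3% (end) and 32.8% (start) for any entry, and 2.64% (end) and 2.01% (start) among the 1000 strongest.

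Genes for other abundant complexes had end entries too. All 8 CCT genes, which encode the cytosolic folding chamber, had an end entry (median signal 49.1), as did 70 of 78 ribosomal protein genes (89.7%, median 53.8). For all protein-coding genes the share was 27.3% and the median 30.8. Thresholded end summits were found at 2 of 8 CCT genes (cct-7 and cct-2) and at 13 of 78 ribosomal protein genes, against 0.996% of all protein-coding genes. At starts, 14 of 33 proteasome genes, 5 of 8 CCT genes and 54 of 78 ribosomal protein genes had a pooled entry, and 0 of 33, 1 of 8 and 9 of 78 had a thresholded summit, against 32.8% and 0.806% of all protein-coding genes. These differences between lists were not tested.

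Genes listed as ubiquitin and proteasome partners were set beside the proteasome genes. The list was chosen with earlier results of these data known, and it also held skn-1, ned-8 and csn genes. Of these 47 genes, 36 had a pooled end entry (76.6%), with a median signal of 35.04, and 10 had 1 among the 1000 strongest (21.3%). The shares of all protein-coding genes were 27.3% and 2.64%. A thresholded end summit was found at 2 of 47, against 0.996% of all protein-coding genes. ubc-7, which encodes a ubiquitin-conjugating enzyme, had 1 at 41 bp past its end, with a signal of 109.1, and ubq-1, the polyubiquitin gene, had 1 at 87 bp past its end, with 108.7. The only thresholded start summit of the 47 genes, against 0.806% of all protein-coding genes, was at cdc-48.1, which encodes an ATPase that extracts ubiquitinated proteins for degradation, 203 bp before its start with a signal of 108.9. A start entry in the pooled list was present at 29 of 47 (61.7%), against 32.8% of all protein-coding genes.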

How the data were processed

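ChIP-seq of tagged T26A5.8 was represented by region lists on ce11: 1 list per replicate and a pooled list (30000 candidate regions with background each), and an optimal thresholded list of 369 regions, per the deposited notes. The deposited lists hold a signal per region, an enrichment value set by the authors, with scaling, aligner and caller not given in the sources used here. Signals were compared only within a list, while ranks of the replicate lists, which are equally long, were also set side by side. Read depth is unknown.

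Genes came from Ensembl release 115 (WBcel235). All regions ended within the reference chromosomes. Windows, counts and medians were computed with Python 3.11.15, numpy 2.4.6 and pandas 2.3.3, and window placement was checked on made-up summits. No test was run: there was 1 group, and members were described beside all protein-coding genes. Intervals are exact binomial (scipy 1.17.1). Genes described singly had a thresholded summit or an entry among the 1000 strongest pooled entries, other members' values being given in brief. Members and lists were chosen with earlier results of these data known.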

Additional observations from a re-analysis of the deposited data

How the results depend on the processing

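Of 53 recomputed values, 46 stayed within 1.5 times the reported count or share, or inside the 95% order-statistic interval of the reported median; 2 of the 53, background shares, were chosen after seeing the data. Members with a thresholded end summit numbered 1 above the median signal of that list, against 0.486% of all protein-coding genes. With the strongest 369 entries of a single replicate they numbered 4 in replicate 3 (against 0.951%) and 1 in replicate 4 (against 1.08%). With the window from 2000 bp before to 500 bp inside the start, 1 member had a thresholded start summit (pbs-1, at 1592 bp before its start). The share of all protein-coding genes was 1.34%. The strongest 369 entries of a single replicate were also used with the start window of 1000 bp before to 200 bp inside. Members with a summit there numbered 0 in replicate 3 (against 0.776%) and 1 in replicate 4 (pas-5, against 0.771%). Members with a pooled start entry numbered 9 with 500 bp before and 100 bp inside, and 29 with the wider window, where 19.01% and 51.7% of all protein-coding genes had 1. The causes were not tested. Members with a pooled end entry numbered between 19 (narrower window, against 13.8% of all protein-coding genes) and 32 (wider window, against 45.1%) in all alternatives. On ce10 the authors' threshold kept 609 regions, with a lowest signal of 73.9, against 369 and 87.7 on ce11. Those ce10 regions were not assigned to genes, so counts of thresholded summits apply to ce11 alone.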
